A study of Mus musculus with 31 samples.

Results

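Adipokines are proteins and peptides that fat tissue releases into the blood or to neighbouring cells. Fat cells make leptin, which reports fat stores to the hypothalamus, and adiponectin, which acts on liver and muscle. Other members act as complement enzymes, carriers, enzymes of NAD synthesis or attractants of immune cells. Their transcript levels in visceral fat are commonly followed with body weight, feeding and insulin action.

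RNA was sequenced from epididymal white adipose tissue (eWAT, the fat pad beside the epididymis) and liver of wild-type male C57BL/6 mice of the F1 generation, aged 24 weeks. The arms carry the diet tags HFLFD, HFD and LFD and are called HFLF, HF and LF here. Every animal had chow after weaning and then LFD from week 6 for 18 weeks, the same in all arms, so the tag was read as the arm of the father's line. That reading rests on the series title alone. There were 6 HFLF, 6 HF and 4 LF libraries of eWAT, and 6 HFLF, 5 HF and 4 LF libraries of liver. No label gives the sire, litter or body weight of an animal, and the p-values measure only the spread between these animals.

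The adipokine genes were chosen by name: Lep, Adipoq, Retn, Rbp4, Cfd, Nampt, Apln, Rarres2 and Itln1. Of these 9, 8 were among the 15987 genes of the eWAT count table and 4 (Rbp4, Cfd, Nampt and Rarres2) among the 13677 of the liver table. Itln1 is not analysed here. The 8 genes took 0.914% to 1.73% of the eWAT counts of a library. Library totals ran from 9278083 to 27230205 counts in eWAT and from 9225373 to 17268415 in liver, and the least counted member in eWAT, Apln, had 69 to 818 counts. Of the 12 fat cell markers all were measured in eWAT, at a summed 45207 to 62970 CPM (counts scaled to library size), and of 14 epididymis markers none was. Libraries LF 3, LF 6, HF 2 and HF 6 held sperm and testis transcripts at a summed 25.7 to 142 CPM, against a median of 2.13 over the 16 libraries on plain totals. Libraries LF 2, HF 3 and HF 5 held B cell transcripts at over 4 times the median, HFLF 6 was low in mesothelium transcripts, and LF 5 and HF 5 were high in hepatocyte transcripts other than Cyp2e1.

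The start regions of 4 members that fat cells are known for are shown. They were picked after Lep was seen to vary opposite to Retn and Cfd between animals, while Adipoq did not follow them. Each line gives the 110 bases before the transcription start, from RefSeq (build GRCm38.p6), 5′ to 3′ on the gene's strand. Capitals mark the motif TTGCNNAA, a binding sequence of C/EBP factors, searched on both strands. Lep lies at chr6:29060111-29060220 (plus strand), Adipoq at chr16:23146426-23146535 (plus), Retn at chr8:3655660-3655769 (plus) and Cfd at chr10:79890743-79890852 (plus).
Lep: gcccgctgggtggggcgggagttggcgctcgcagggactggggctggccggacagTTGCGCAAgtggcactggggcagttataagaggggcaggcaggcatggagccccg
Adipoq: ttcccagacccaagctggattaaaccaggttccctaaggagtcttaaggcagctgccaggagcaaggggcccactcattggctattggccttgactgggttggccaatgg
Retn: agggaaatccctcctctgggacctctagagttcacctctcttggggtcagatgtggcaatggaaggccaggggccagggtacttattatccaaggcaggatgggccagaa
Cfd: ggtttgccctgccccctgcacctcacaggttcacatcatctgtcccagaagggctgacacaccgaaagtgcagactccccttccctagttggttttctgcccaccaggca
The motif occurred in Lep alone of these 4 windows, at 55 bases before the start. It was found in 3.77% of 32841 RefSeq promoter windows of the same 110 bases. The same window of Apln, a member positively correlated with Lep, did not hold the motif. In a search over the 250 bases before the start, Rbp4 held it too, 128 bases before a start site. Of all promoter windows of that length 9.57% held it, and Rbp4 had r = 0.10 with Lep over the eWAT libraries. Whether the motif bears on these levels was not tested. The Adipoq window held the motif CCAAT 3 times, on either strand, at 34, 27 and 7 bases before the start, and 20.2% of windows held it at least once.

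Per length of exon, Cfd was the most abundant member in eWAT and Apln the least. On the scale of CPM per kilobase, Cfd averaged 5433 ± 2682, Adipoq 2659 ± 473, Retn 582 ± 138, Lep 521 ± 209, Rbp4 517 ± 88.3, Rarres2 119 ± 17.9, Nampt 22.9 ± 4.67 and Apln 6.18 ± 3.08 (SD, n = 16 libraries). Cfd was above Adipoq in 14 of 16 libraries, whereas Adipoq was above Retn in 16 of 16. Retn, Lep and Rbp4 could not be put in order: Retn was above Lep in 7 of 16 libraries, and Lep above Rbp4 in 7 of 16.

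Lep, Cfd and Apln differed most from animal to animal within an arm. Their within-arm standard deviations were 0.72, 0.72 and 0.78 on the log2 scale, larger than those of 98.7%, 98.7% and 98.9% of the 9832 eWAT genes with a mean of at least 10 CPM. The median gene had 0.18. Retn (0.32), Nampt (0.29), Adipoq (0.25) and Rarres2 (0.24) lay above 73.2% to 86.7% of genes, and Rbp4 (0.19) above 55.3%.

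**Figure D1:**
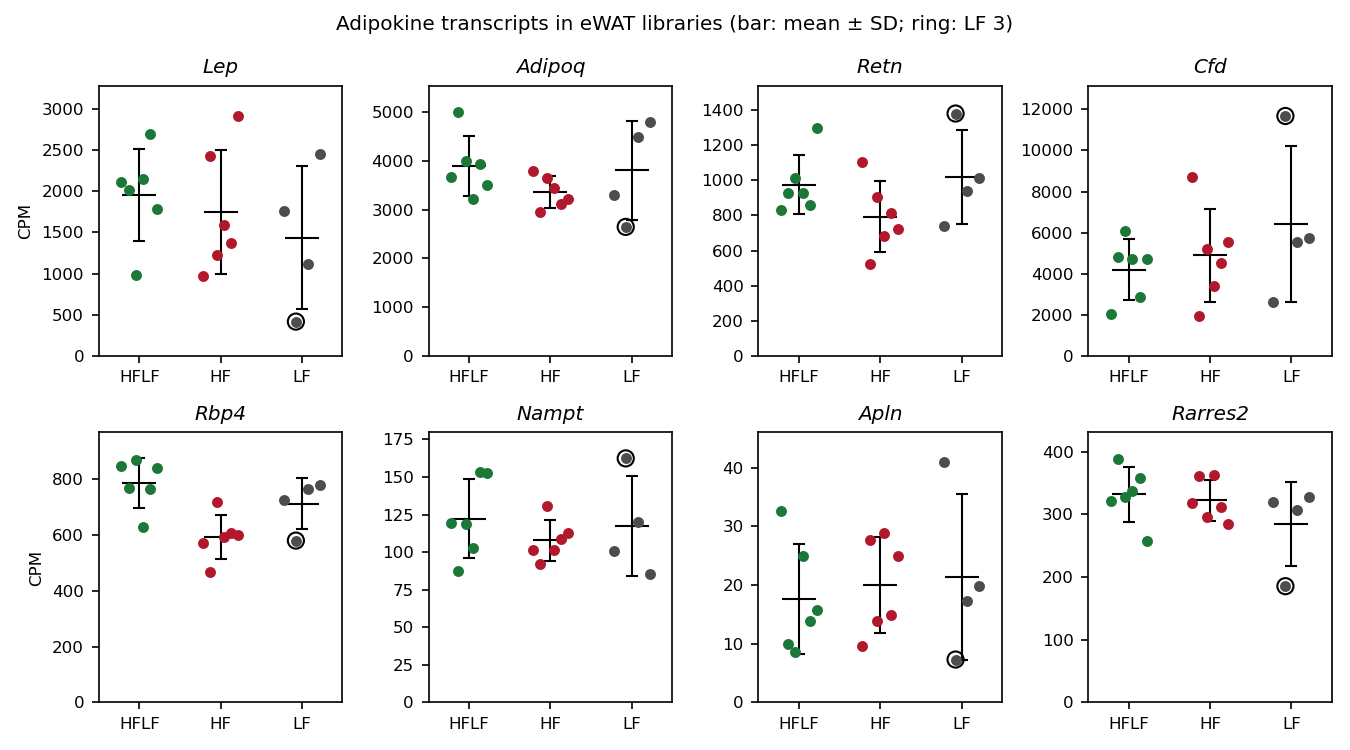
CPM (counts scaled to TMM library size) of the 8 adipokine genes in every eWAT library of the HFLF, HF and LF arms; bars are means ± SD and the ring marks library LF 3. Library LF 3 is at the low or high end of all 16 libraries for Lep, Adipoq, Retn, Cfd, Nampt, Apln and Rarres2, and the arms overlap for every gene.

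Leptin and adiponectin, the main hormones of fat cells, did not differ between arms beyond the spread between animals. Lep (chromosome 6, 29060220 to 29073877) had a lowest, median and highest level of 986, 2064 and 2694 CPM in HFLF libraries and of 966, 1484 and 2908 CPM in HF libraries, against 1761, 416, 1112 and 2446 CPM in LF libraries 2, 3, 5 and 6. The 3 ranges overlapped nearly throughout, and the lowest value of all was LF 3. Adipoq (chromosome 16, 23146536 to 23158028) had 3223, 3813 and 5010 CPM in HFLF libraries and 2958, 3335 and 3802 CPM in HF libraries, against 3294, 2647, 4490 and 4791 CPM in LF libraries. All 6 HF libraries lay below the LF mean of 3806 ± 1007 CPM (SD, n = 4), but LF 2 lay among them and LF 3 below them.

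Resistin, a secreted protein that in mice opposes insulin action, is encoded by Retn (chromosome 8, 3655770 to 3660110). Retn had 829.1, 929 and 1299 CPM as lowest, median and highest in HFLF libraries and 522, 770 and 1106 CPM in HF libraries, against 741, 1381, 941 and 1011 CPM in LF libraries. The lowest library was HF 2 and the highest LF 3. Cfd (chromosome 10, 79890853 to 79892655) encodes adipsin, the protease that starts the alternative complement pathway by cleaving factor B. It had 2044, 4714 and 6058 CPM in HFLF libraries and 1956, 4851 and 8697 CPM in HF libraries, against 2644, 11676, 5534 and 5753 CPM in LF libraries. The LF 3 value was 5.97 times that of HF 2, the lowest library.

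Rbp4 was the only member with an unadjusted p under 0.05 in any eWAT comparison. It encodes the retinol carrier of plasma, which liver and fat cells secrete. Rbp4 (chromosome 19, 38116629 to 38125281, minus strand) had 628, 805 and 867 CPM as lowest, median and highest in HFLF libraries and 467, 595 and 718 CPM in HF libraries, against 726, 580, 763 and 779 CPM in LF libraries. Of the 6 HFLF libraries 5 lay above every HF library, the exception being HFLF 4, and 3 lay above every LF library.

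Nampt, Apln and Rarres2 complete the set. Nampt (chromosome 12, 32819545 to 32853349) encodes the enzyme of NAD salvage that is also released as visfatin, and had 87.4, 119 and 153 CPM in HFLF libraries and 91.9, 105 and 131 CPM in HF libraries, against 101, 162, 120.3 and 85.6 CPM in LF libraries. Apln (chromosome X, 48025146 to 48034853, minus strand) encodes apelin, a peptide acting on blood vessels and heart, and had 8.56, 14.8 and 32.6 CPM in HFLF libraries and 9.56, 19.9 and 28.8 CPM in HF libraries, against 40.9, 7.31, 17.3 and 19.9 CPM in LF libraries. Both ends of the Apln levels, LF 2 and LF 3, belonged to the LF arm. Rarres2 (chromosome 6, 48569696 to 48572789, minus strand) encodes chemerin, an attractant of macrophages and dendritic cells, and had 258, 333 and 388 CPM in HFLF libraries and 284, 315 and 362 CPM in HF libraries, against 319, 185, 307 and 328 CPM in LF libraries. Without LF 3, the LF libraries lay inside the ranges of both other arms.

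No member passed the threshold in HFLF against HF, the comparison that shares no library with LF. Counts were compared by edgeR's quasi-likelihood test with Benjamini-Hochberg adjustment over all eWAT genes at 0.05, which called 0% of 15987 genes in each eWAT comparison. At an unadjusted p under 0.05, 1 of 8 members was higher and 0 were lower in HFLF than in HF, where 4.86% of all genes were higher and 4.43% lower. That member was Rbp4, at 786 ± 88.8 CPM in HFLF libraries and 592 ± 80.0 in HF libraries (SD, n = 6 each), a log2 fold change of 0.41 ± 0.11 (SE) with an adjusted p of 0.407. Its unadjusted edgeR p was 0.00166, and an exact two-sided permutation test over 924 labellings of mean log2 CPM gave p = 0.00433, where the smallest possible is 0.00108. DESeq2, which called 0.325% of genes (52), gave Rbp4 an adjusted p of 0.0324, and over all alternatives the adjusted p ran from 0.0324 to 0.806 with log2 fold changes of 0.33 to 0.49.

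The fat cell markers lay to the same side as Rbp4. All 12 had positive log2 fold changes in HFLF against HF, with a median of 0.19 against 0.00 for all genes, and their summed level was 49946 to 62970 CPM (median 59767) in HFLF libraries and 47049.7 to 55887 CPM (median 50165) in HF libraries. The macrophage markers lay to the other side in 9 of 10 cases, with summed medians of 1124 CPM in HFLF libraries and 1314 CPM in HF libraries. Of the 8 testis markers 8 were lower in HFLF than in HF at an unadjusted edgeR p under 0.05. So were 11 of 13 hepatocyte markers and 8 of 10 B cell markers. Of all genes 4.43% were lower and 4.86% higher at that p. Libraries HF 2 and HF 6 were high in testis transcripts. HF 3 and HF 5 were high in B cell transcripts, and HF 5 in hepatocyte transcripts other than Cyp2e1. The summed testis markers had medians of 3.53 CPM in HF libraries and 1.93 CPM in HFLF libraries. All 13 mesothelium markers had negative log2 fold changes, 0 of them at that p, and 3 of 5 brown fat markers were higher at that p. HF 2, one of the libraries high in testis transcripts, had the lowest Rbp4 level. Without the libraries high in testis transcripts the log2 fold change of Rbp4 was 0.33 (adjusted p = 0.354 by edgeR), and without those high in B cell markers it was 0.49. The part of the other markers in the Rbp4 difference was not tested. In bulk tissue, more cells of a type and more RNA per cell cannot be told apart. With each tissue scaled on its own, albumin in eWAT was 0.0182% to 0.317% of its mean level in liver. The same share of liver Rbp4 would be 0.66 to 11.52 CPM. That share takes all albumin RNA in eWAT as liver RNA, which was not tested.

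For the other members, HFLF against HF gave log2 fold changes of 0.30 ± 0.17 for Retn, 0.21 ± 0.14 for Adipoq, 0.18 ± 0.16 for Nampt, 0.16 ± 0.36 for Lep, 0.04 ± 0.13 for Rarres2, -0.17 ± 0.41 for Apln and -0.22 ± 0.37 for Cfd. Their adjusted p values ran from 0.608 to 0.953. The 95% intervals of Lep (-0.60 to 0.93), Cfd (-0.995 to 0.56) and Apln (-1.04 to 0.69) leave room for changes of about 1 log2 unit, whereas that of Rarres2 (-0.23 to 0.31) does not. Retn was above the HF mean in all 6 HFLF libraries, and only HFLF 6 was above every HF library.

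No member passed in HF against LF or in HFLF against LF either. In HF against LF, at an unadjusted p under 0.05, 0 members were higher and 1 lower, where 2.82% of all genes were higher and 4.22% lower. Rbp4 had 592 ± 80.0 CPM in HF libraries (n = 6) and 712 ± 91.0 in LF libraries (SD, n = 4), with a log2 fold change of -0.27 ± 0.12, an edgeR p of 0.0428 and an adjusted p of 0.689. The exact permutation p was 0.0857, and 1 of 6 HF libraries was above the LF mean. The same 6 HF libraries enter HFLF against HF, so the Rbp4 results of these comparisons are not independent. The remaining log2 fold changes in HF against LF were 0.29 ± 0.41 for Lep, 0.18 ± 0.14 for Rarres2, -0.11 ± 0.46 for Apln, -0.12 ± 0.17 for Nampt, -0.18 ± 0.16 for Adipoq, -0.36 ± 0.19 for Retn and -0.39 ± 0.41 for Cfd.

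In HFLF against LF, 0 of 8 members had an unadjusted p under 0.05, where 3.78% of all genes were higher and 7.06% lower. The log2 fold changes were 0.45 ± 0.41 for Lep, 0.22 ± 0.14 for Rarres2, 0.14 ± 0.12 for Rbp4, 0.06 ± 0.17 for Nampt, 0.03 ± 0.16 for Adipoq, -0.06 ± 0.20 for Retn, -0.29 ± 0.45 for Apln and -0.61 ± 0.40 for Cfd. Both comparisons use the same 4 LF libraries. Adjusted p values were 0.612 or more. CPM ranges overlapped between arms for all 8 members in all 3 comparisons, while 0.757% of all genes had ranges that did not overlap in HFLF against HF, 0.926% in HF against LF and 1.23% in HFLF against LF.

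**Figure D2:**
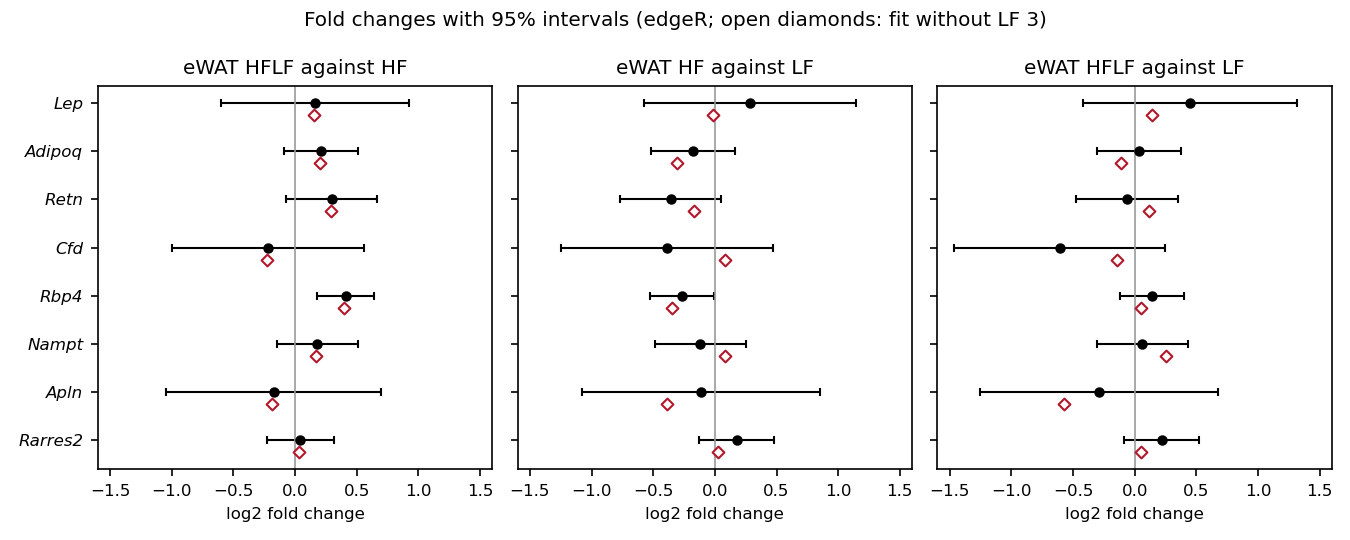
Log2 fold changes of the 8 adipokine genes in eWAT (x axis) from edgeR with 95% intervals as bars, for HFLF against HF, HF against LF and HFLF against LF; open diamonds give the same value from a fit without library LF 3. The interval of Rbp4 in HFLF against HF spans 0.18 to 0.64, and the diamonds of Lep and Cfd in HF against LF lie at -0.01 and 0.08.

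Library LF 3 decided several of the differences from LF. It was the lowest of 16 libraries for Lep, Adipoq, Apln and Rarres2 and the highest for Retn, Cfd and Nampt, so 7 of 8 members were at an end there. Of all eWAT genes 27.4% had an end in that library, beside 20.9% in HFLF 6 and 31.8% in LF 6. HF 2 was next, with Retn, Rbp4 and Cfd at their lowest. Without LF 3, the log2 fold change in HF against LF became -0.01 for Lep, 0.08 for Cfd, 0.08 for Nampt, -0.17 for Retn, 0.02 for Rarres2, -0.39 for Apln, -0.31 for Adipoq (adjusted p = 0.761 by edgeR) and -0.35 for Rbp4. In HFLF against LF without LF 3 it became 0.14 for Lep, -0.14 for Cfd, 0.12 for Retn, -0.11 for Adipoq, 0.05 for Rarres2, 0.25 for Nampt, -0.57 for Apln and 0.05 for Rbp4.

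LF 3 was also 1 of 4 libraries high in testis transcripts. It had the highest summed level of 16 libraries for macrophage markers (2291 CPM, against 2117 CPM in HF 2, the next), for fat progenitor and fibroblast markers (6427 CPM) and for Cyp2e1 (6557 CPM), and the lowest total, 9278083 counts. Its fat cell markers summed to 49181 CPM, against 45207 to 58201 CPM over all 4 LF libraries. Apln changed sign without LF 2, the library highest in B cell markers, with log2 fold changes of 0.42 in HF against LF and 0.24 in HFLF against LF. In HF against LF it also changed sign without HF 1 (0.032). The part of these markers in the differences was not tested.

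**Figure D3:**
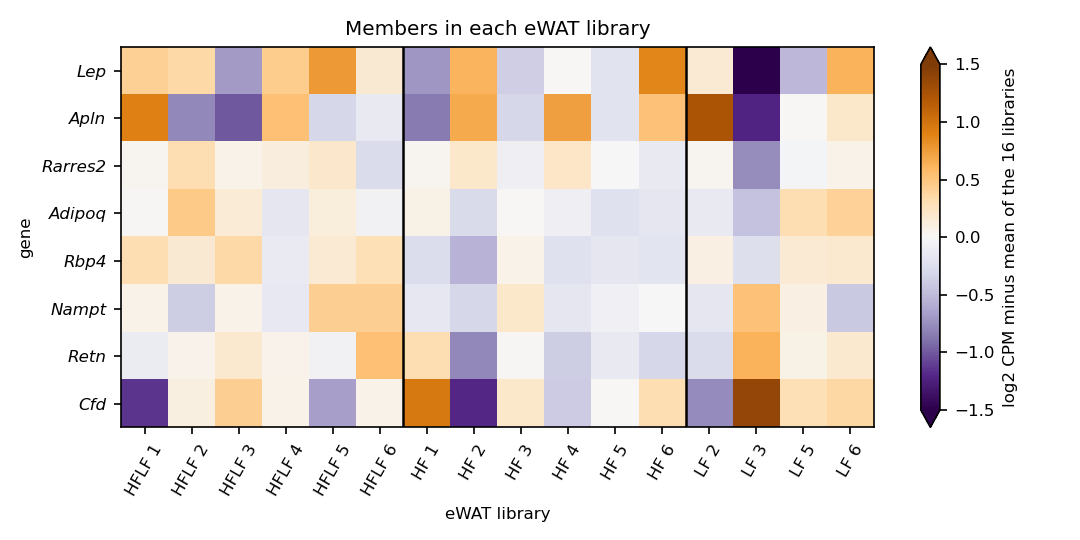
Log2 CPM of each adipokine gene (rows) in each of the 16 eWAT libraries (columns, HFLF, HF, then LF), as the difference from the gene's mean over all libraries. Column LF 3 is low for Lep, Apln, Rarres2 and Adipoq and high for Cfd, Retn and Nampt, and HF 2 is low for Cfd, Retn and Rbp4.

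Across animals, Lep, Apln and Rarres2 were each negatively correlated with both Retn and Cfd. Over the 16 eWAT libraries, Pearson's r of log2 CPM was computed for all 28 pairs, and 11 had an adjusted p under 0.05 in a permutation test with 100000 resamples. Positive pairs were Retn with Cfd (r = 0.75, rho = 0.72, adjusted p = 0.0153), Lep with Rarres2 (r = 0.66, rho = 0.39, adjusted p = 0.0442), Lep with Apln (r = 0.64, rho = 0.51, adjusted p = 0.0243) and Adipoq with Rbp4 (r = 0.63, rho = 0.67, adjusted p = 0.0347). For rho, the adjusted permutation p was 0.0393 for Retn with Cfd and for Adipoq with Rbp4, but 0.217 for Lep with Apln and 0.307 for Lep with Rarres2. Negative pairs were Cfd with Apln (r = -0.74), Retn with Apln (r = -0.69), Lep with Cfd (r = -0.68), Nampt with Rarres2 (r = -0.67), Retn with Rarres2 (r = -0.62), Cfd with Rarres2 (r = -0.59) and Lep with Retn (r = -0.59), with adjusted p of 0.0153 to 0.0467. For the last 3 and for Lep with Cfd, rho ran from -0.41 to -0.49 and its adjusted p from 0.217 to 0.307. For Nampt with Rarres2, rho was -0.63 with an adjusted permutation p of 0.057, which did not pass. All points share library depth and the makeup of the fat pad.

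Several of these relations changed when libraries were left out. Without LF 3 alone, r was 0.19 for Lep with Rarres2, -0.33 for Cfd with Rarres2, -0.40 for Lep with Retn, -0.44 for Retn with Rarres2, -0.51 for Lep with Cfd and -0.54 for Nampt with Rarres2. Without that library, r was 0.67 for Retn with Cfd and -0.67 for Cfd with Apln. Without the 2 libraries farthest from the median of the first gene, 1 of 28 pairs kept an adjusted p under 0.05, Nampt with Rarres2 (r = -0.81, adjusted p = 0.0143, n = 14). There r was 0.52 for Retn with Cfd, -0.65 for Cfd with Apln, -0.60 for Retn with Apln, 0.62 for Adipoq with Rbp4 and -0.38 for Lep with Cfd, and 0.20 for Lep with Rarres2. With arm means subtracted, 7 pairs passed, led by Retn with Cfd (r = 0.87, adjusted p = 0.0101) and Cfd with Apln (r = -0.81, adjusted p = 0.015). Within arms, r of Retn with Cfd was 0.60 over 6 HFLF libraries, 0.94 over 6 HF libraries and 0.99 over 4 LF libraries. Over the 4 LF libraries, LF 3 among them, pairs that did not pass over all 16 libraries also had r far from 0. Such pairs were Lep with Nampt (-0.99) and Rbp4 with Rarres2 (0.98). Without the 4 libraries high in testis transcripts no pair passed, and r was -0.75 for Cfd with Apln and -0.74 for Lep with Cfd (n = 12, adjusted p = 0.0868 by permutation for each). For Nampt with Rarres2 it was -0.57 there (adjusted p = 0.29 by permutation).

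**Figure D4:**
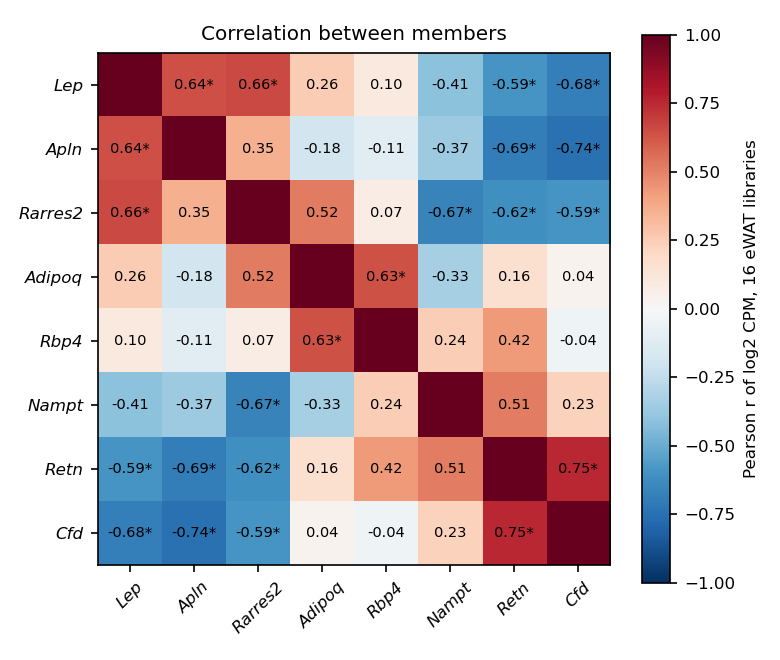
Pearson's r of log2 CPM over the 16 eWAT libraries for every pair of adipokine genes (rows and columns), with an asterisk where the adjusted p is under 0.05. Retn with Cfd has the highest r, 0.75, and Cfd with Apln the lowest, -0.74.

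The genes whose levels were most like each member over the 16 libraries, by Pearson's r of log2 CPM among 14491 eWAT genes with a mean of at least 1 CPM, are given as a description. For Lep they were Trp53inp2 and Tspan17 (r = 0.957 each), and for Retn Slc20a2 (0.936), Ppp1r1a (0.928) and Fahd1 (0.928). For Adipoq they were Dlec1 (0.896), Grina (0.891) and Mthfsd (0.879), and for Rbp4 Kcnk3 (0.868), Entpd6 (0.852) and Phgdh (0.842), an enzyme of serine synthesis. Cfd was most like Ccnl2 (0.896), Aldh2 (0.882), the mitochondrial aldehyde dehydrogenase, and Zyg11a (0.881). Nampt was most like Ppp2r3a (0.915), Vps13a (0.891) and Gbe1 (0.881), the glycogen branching enzyme. Apln was most like Dusp6 (0.862), a phosphatase of ERK kinases, Ppic (0.851) and Gm46565 (0.848), and Rarres2 was most like Fhl1 (0.914), Gstm4 (0.904) and 9330188P03Rik (0.902). Without the 2 libraries farthest from the member's median, r was 0.89 for both Lep genes and 0.58 to 0.69 for the Rarres2 genes.

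Of 11 measured adipokine receptors none passed the edgeR threshold or an unadjusted p of 0.05 in any eWAT comparison. Their median log2 fold change was 0.02 in HFLF against HF, 0.02 in HF against LF and 0.01 in HFLF against LF, against 0.00, 0.00 and 0.01 for all genes. Aplnr, the apelin receptor, had 36.8 ± 9.41 CPM in HFLF libraries and 38.9 ± 8.57 CPM in HF libraries, against 45.1 ± 14.2 CPM in LF libraries (SD, n = 6, 6 and 4). Ccrl2, a receptor that binds chemerin, had 7.32 ± 2.65 CPM in HFLF libraries and 8.42 ± 2.22 CPM in HF libraries.

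In the alternative complement pathway, where adipsin acts, 0 of 11 measured genes passed in edgeR. At an unadjusted p under 0.05, 3 were lower and 0 higher in HFLF than in HF, and 4 lower and 0 higher in HFLF than in LF. Of all genes 4.43% were lower and 4.86% higher in the first comparison, and 7.06% lower and 3.78% higher in the second. The smallest p belonged to Cfp, which encodes properdin, the stabiliser of the pathway's convertase. Cfp had 53.4 to 86.6 CPM in HFLF libraries and 89.9 to 123 CPM in HF libraries, against 138, 125, 91.8 and 107 CPM in LF libraries, and HFLF overlapped with neither, as did 0.757% of all genes against HF and 1.23% against LF. Its log2 fold change was -0.52 ± 0.13 in HFLF against HF (edgeR adjusted p = 0.395, DESeq2 adjusted p = 0.0254) and -0.65 ± 0.14 in HFLF against LF (edgeR adjusted p = 0.266, DESeq2 adjusted p = 0.0188). DESeq2 called 0.432% of genes in the second of these. Macrophages also express Cfp, and macrophage markers had median log2 fold changes of -0.44 and -0.70 in the same comparisons. Their part was not tested. Cfi, the protease that inactivates C3b, had 0.46 ± 0.28 CPM in HFLF libraries and 1.05 ± 0.80 CPM in HF libraries, against 1.505 ± 0.64 CPM in LF libraries, near the floor of 3 counts (0.11 to 0.323 CPM by library).

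The list for adiponectin assembly and release holds mostly endoplasmic reticulum proteins that fold, modify or retain adiponectin and other proteins. Of its genes 0 of 13 passed, and 10 of 13 had negative log2 fold changes in HFLF against HF. The median was -0.07, and whether the list as a whole shifted was not tested. Pdia4, a disulfide isomerase, had 121 ± 8.40 CPM in HFLF libraries and 139 ± 16.1 CPM in HF libraries (adjusted p = 0.482 by edgeR). Ero1lb, a disulfide oxidase, had 12.8 ± 1.64 CPM in HFLF libraries and 17.2 ± 2.59 CPM in HF libraries (adjusted p = 0.518 by edgeR).

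Among 15 transcription regulators of fat cells none passed. Ebf1 had 220 ± 17.9 CPM in HF libraries and 185 ± 21.4 CPM in LF libraries, and every HF library lay above every LF library, as in 0.926% of genes that did not overlap in either direction, with a log2 fold change of 0.25 ± 0.09 and an adjusted p of 0.689 by edgeR. Cebpd, a C/EBP factor of early fat cell differentiation, had 71.9 ± 21.5 CPM in HF libraries and 42.4 ± 14.1 CPM in LF libraries (log2 fold change 0.76 ± 0.33, adjusted p = 0.689 by edgeR). Nor did any of 13 genes of NAD salvage and use pass. Nnmt, which methylates nicotinamide, had 169 ± 29.7 CPM in HFLF libraries and 137 ± 12.6 CPM in HF libraries (log2 fold change 0.30 ± 0.11). Parp1, an NAD-consuming enzyme, had 59.7 ± 4.31 CPM in HF libraries and 70.5 ± 4.31 CPM in LF libraries (log2 fold change -0.24 ± 0.08). Their edgeR adjusted p values were 0.451 and 0.689.

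The remaining secreted factors gave no called gene. Of 8 measured C1q/TNF-related proteins, the relatives of adiponectin, C1qtnf6 had 16.3 ± 4.35 CPM in HFLF libraries and 23.6 ± 8.06 CPM in LF libraries, with an adjusted p of 0.369 in edgeR. Retnla, a relative of resistin expressed in mouse fat, had 314 ± 77.8 CPM in HFLF libraries and 362 ± 104 CPM in HF libraries, against 272 ± 58.2 CPM in LF libraries. Among 30 other factors, Lpl, the lipase that frees fatty acids from lipoproteins, had 7587 to 14861 CPM in HFLF libraries and 6806 to 9153 CPM in HF libraries (log2 fold change 0.39 ± 0.16, edgeR adjusted p = 0.501).

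In liver, Rbp4 was counted at several times its CPM in fat, Rarres2 and Nampt at similar CPM, and Cfd near the floor. The tissues were scaled separately, so these levels are set side by side without a test. Rbp4 averaged 3667 ± 363 CPM in HFLF livers and 3658 ± 322 CPM in HF livers, against 3552 ± 228 CPM in LF livers (SD, n = 6, 5 and 4). Its log2 fold changes were 0.00 ± 0.09 in HFLF against HF, 0.04 ± 0.10 in HF against LF and 0.05 ± 0.10 in HFLF against LF, with 95% intervals inside -0.19 to 0.26. Rarres2 averaged 318 ± 47.2 CPM in HFLF livers and 310.3 ± 41.5 CPM in HF livers, against 285 ± 54.5 CPM in LF livers. Nampt averaged 79.2 ± 30.2 CPM in HFLF livers and 95.7 ± 27.4 CPM in HF livers, against 70.0 ± 25.5 CPM in LF livers, with overlapping ranges.

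Cfd was barely counted in liver. The 6 HFLF livers had 2, 20, 5, 7, 8 and 7 counts and the 5 HF livers 6, 21, 6, 16 and 14 counts, against 2, 5, 2 and 8 counts in the 4 LF livers. Its log2 fold change in HF against LF was 1.4996 ± 0.61, with an adjusted edgeR p near 1, and 1 of 4 measured members thus had an unadjusted p under 0.05, where 3.6% of all liver genes did. No liver gene passed the edgeR threshold. The tissues were compared by an interaction term over 12735 genes of both tables, and 0 members and 0% of genes passed. Libraries of both tissues with the same arm and number may come from the same animal. This fit took all 31 libraries as independent. In a limma voom fit that blocked on arm and number, the correlation between such libraries was 0.00618. For HF against LF, the eWAT minus liver log2 fold change was -1.89 ± 0.85 for Cfd, -0.56 ± 0.37 for Nampt, -0.30 ± 0.19 for Rbp4 and 0.07 ± 0.21 for Rarres2, each with an adjusted edgeR p of 0.956 or more. For HFLF against LF it was -1.83 ± 0.86 for Cfd (adjusted p = 0.824 by edgeR), -0.12 ± 0.37 for Nampt, 0.10 ± 0.19 for Rbp4 and 0.06 ± 0.21 for Rarres2.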

How the data were processed

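The authors deposited whole-number counts per gene from which genes of low CPM had been dropped, as the tables' names state. The submitters' processing notes name STAR and GRCm38.p6. How reads were counted, and whether by strand, is not given in the sources used here, so reads of overlapping antisense genes could not be told apart. The deposited RPKM tables were not used, because their implied gene lengths do not follow the genes. Columns were matched to samples by name, and symbols came from GENCODE M21 (15969 of 15987 eWAT and 13662 of 13677 liver identifiers).

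The counts were analysed in edgeR 4.0.16 (R 4.3.3): TMM scaling, filterByExpr, robust quasi-likelihood fits with the arms as groups, each tissue by itself, and Benjamini-Hochberg adjustment over all genes. DESeq2 1.42.0 and limma 3.58.1 gave alternatives. Standard errors follow from the F statistic. Log2 CPM used a prior count of 2. CPM per kilobase used exon lengths from the annotation. A floor of 3 counts covers counting error only. The fits were tested on simulated data.

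The members and lists were chosen with earlier results of these data known. Named genes were all members, the 3 list genes of smallest p in each eWAT comparison and the 3 genes most like each member, of which 1 is not reported here. Alternatives were other scalings, filters, tools, leaving out each library, leaving out libraries set apart by markers, and a replicate block. Those with hepatocyte markers other than Cyp2e1 were chosen after seeing the data.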

Additional observations from a re-analysis of the deposited data

Results flagged for a closer look

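Sets of 4 to 6 libraries, each a member in an arm of a tissue, were tested for a far sample, and 1 of 36 sets held 1. Chance alone would give about 1 in 20, so 1 of 36 is not above that share. Rarres2, the chemerin gene, was at 185 CPM in eWAT library LF 3, while LF 2, LF 5 and LF 6 lay between 307 and 328 CPM. The gap to the nearest library was 0.854 of the range of the group, above Dixon's 95% critical value of 0.829 for 4 samples.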

How the results depend on the processing

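In edgeR no gene passed in any comparison, and the counts moved as follows. DESeq2 called 12 genes in eWAT in HF against LF, 69 in HFLF against LF and 52 in HFLF against HF, and 1 and 11 in liver in HF against LF and HFLF against LF, and limma voom called 0 in each. Leaving out 1 library gave 0 to 13 genes in eWAT in HFLF against LF, with 13 without LF 5, and 6 without the libraries high in hepatocyte markers other than Cyp2e1 (LF 5 and HF 5). For the tissue interaction in HFLF against LF it gave 0 to 1, with 1 without eWAT HF 5 or liver HFLF 4. Correlations of same-numbered deviations ran from -0.338 to 0.375 in eWAT (median 0.0902) and from -0.105 to 0.384 in liver (median 0.0848). For different numbers they ran from -0.366 to 0.362 in eWAT (median -0.0287) and from -0.393 to 0.447 in liver (median -0.0413). Between tissues the medians were 0.0342 for the same number and -0.00548 for different numbers. Whether the numbers pair the samples was not tested. The fit with the replicate block called 0 genes in eWAT, 0 for the interaction and 1 in liver in HFLF against LF. The whole hepatocyte list set no library apart, so that alternative gave no value.

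No member passed in edgeR under any alternative, and Rbp4 in HFLF against HF passed an adjusted threshold in DESeq2 alone (0.40). The exact permutation test of Rbp4 (a difference of 0.41) is unadjusted, with p = 0.00433. The causes of the changes of sign below were not tested. Leaving out 1 library gave log2 fold changes in HF against LF of -0.012 to 0.67 for Lep, -0.64 to 0.083 for Cfd, -0.24 to 0.079 for Nampt and -0.39 to 0.42 for Apln. In HFLF against LF it gave -0.11 to 0.16 for Adipoq, -0.19 to 0.12 for Retn, -0.062 to 0.25 for Nampt and -0.57 to 0.24 for Apln, and in HFLF against HF -0.39 to 0.025 for Cfd and -0.013 to 0.11 for Rarres2. In liver it gave -0.011 to 0.072 for Rbp4 in HF against LF, and in HFLF against HF -0.018 to 0.056 for Rbp4 and -0.031 to 0.12 for Rarres2. Without the libraries high in testis markers, HF against LF gave -0.16 for Lep, 0.061 for Retn and 0.41 for Cfd, HFLF against LF gave -0.011 for Adipoq, 0.21 for Retn and 0.032 for Cfd, and HFLF against HF gave 0.071 for Apln. Without those high in B cell markers, Apln was 0.61 in HF against LF and 0.24 in HFLF against LF, Adipoq -0.032 and Nampt -0.0066 in HFLF against LF, and Lep -0.023 and Rarres2 -0.0070 in HFLF against HF. Without the library low in mesothelium markers, Nampt was -0.012 in HFLF against LF. The difference of mean log2 CPM of Apln in HF against LF was 0.043.

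Of the 28 pairs, 11 passed, 7 with arm means subtracted, 1 without the 2 farthest libraries and 0 without the libraries high in testis markers, alternatives with fewer libraries in the last 2 cases. The sign of r turned with plain totals for Adipoq with Cfd (-0.018) and Rbp4 with Rarres2 (-0.037), and with arm means subtracted for Adipoq with Retn (-0.010) and Rbp4 with Cfd (0.0078). Without the 2 farthest libraries it turned for Lep with Adipoq (-0.13), Lep with Rbp4 (-0.30), Adipoq with Nampt (0.089), Adipoq with Rarres2 (-0.0081), Cfd with Nampt (-0.22) and Apln with Rarres2 (-0.0032). Without the libraries high in testis markers it turned for Lep with Adipoq (-0.087), Lep with Nampt (0.14), Rbp4 with Rarres2 (-0.22), Cfd with Nampt (-0.15) and Apln with Rarres2 (-0.033). None of the pairs that turned had passed. With 4 to 6 animals an arm, the 95% intervals of Lep, Cfd and Apln span more than 1 log2 unit, and depth limits Cfd in liver.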

Other observations

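Cyp2e1, an enzyme of ethanol and fatty acid oxidation, was on the list of hepatocyte markers but was abundant in eWAT itself, at 1279 to 6557 CPM, against 4650 to 8482 CPM in liver. Its level followed several members across the 16 eWAT libraries. Pearson's r of log2 CPM was -0.87 with Lep (rho = -0.80), -0.82 with Apln (rho = -0.78), 0.77 with Retn (rho = 0.75) and 0.73 with Cfd (rho = 0.58), with permutation p adjusted over 80 relations of 0.0016, 0.0064, 0.00907 and 0.0298. For rho the adjusted permutation p was 0.0252 with Lep, 0.0252 with Apln and 0.0317 with Retn, and 0.179 with Cfd, which did not pass. Without the 2 libraries farthest from the median of Cyp2e1, r was -0.80 with Lep, -0.76 with Apln, 0.59 with Retn and 0.51 with Cfd (n = 14). The 12 other hepatocyte markers, summed, gave r of -0.38 with Lep and 0.20 with Cfd, and none of their 8 relations passed. This gene was singled out after its values were seen, and the adjustment over 80 relations does not cover that choice. How many of all eWAT genes had an r this far from 0 with these members is not given here.

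The other 9 summed marker lists, those for hepatocytes other than Cyp2e1, testis, fat progenitors and fibroblasts, fat cells, blood vessel endothelium, macrophages, B cells, mesothelium, and smooth muscle and pericytes, gave no relation with an adjusted p under 0.05. The r farthest from 0 were -0.63 for endothelium markers with Nampt, 0.63 for fat cell markers with Adipoq and -0.62 for macrophage markers with Rbp4 (adjusted p = 0.114 by permutation for each). Without the 2 libraries farthest from the median of the list, these r were -0.57, 0.76 and -0.54. There macrophage markers had -0.82 with Retn, -0.68 with Cfd and 0.68 with Apln, and smooth muscle and pericyte markers 0.71 with Lep. Over all 16 libraries those r were -0.40, -0.17, 0.25 and 0.22. The values without these libraries were not tested.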
